A study of Mus musculus with 48 samples.

Results

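A set of 10 genes known for their expression in blood platelets and in megakaryocytes, the bone marrow cells that shed platelets, was followed in mouse blood and in the medial prefrontal cortex (mPFC) of the same animals. The 10 genes are Pf4, Ppbp, Itga2b, Itgb3, Gp9, Gp5, Gp1ba, Treml1, Clec1b and Selp, and they were chosen by name: every array probe that was not a control and carried 1 of these names was taken. This gave 13 probes of the 55681 on the array, 3 for Clec1b, 2 for Itgb3 and 1 for each of the other genes. The measurements came from 48 one-colour microarrays, 24 of blood and 24 of mPFC, 1 of each per mouse. All mice were female C57BL/6J of 17 weeks in 4 groups of 6: sham operation without stress (control), sham operation with chronic ultra-mild stress (CUMS), ovariectomy without stress (OVX), and ovariectomy with the stress (OVX+CUMS). Control and CUMS mice therefore shared the sham operation, and all mice received pentobarbital before sampling. The blood RNA was from the pellet of 300 µl heparinized blood spun at 1000 g for 2 min, so RNA of any platelets left above the pellet was not measured.

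Platelets have no nucleus, and the mRNA in them is carried over from the megakaryocyte. The genes fall into a few roles. Pf4 and Ppbp encode chemokines stored in the platelet alpha granules. Itga2b and Itgb3 encode the paired chains of the fibrinogen receptor. Gp1ba, Gp9 and Gp5 encode parts of the receptor complex for von Willebrand factor, Clec1b encodes CLEC-2, the podoplanin receptor, and Treml1 encodes a receptor of the alpha granule membrane. Selp encodes P-selectin, which moves to the surface of activated platelets and is also made by endothelial cells. Itgb3 too is made by endothelial cells.

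Each probe is 60 bases long, and its position is given on mouse genome build mm9. The opening 30 bases are printed for the probes of the genes called in blood and for the 2 genes with several probes, because these are the sequences whose readings are compared; no base is marked. The Selp probe lies at chr1:166079660-166079719 on the plus strand, the Gp9 probe at chr6:87729650-87729709 on the plus strand, and the Gp5 probe at chr16:30308347-30308406 on the minus strand. Probes 1, 2 and 3 of Clec1b lie on the plus strand at chr6:129350113-129350172, chr6:129355286-129355345 and chr6:129353604-129353663. Probes 1 and 2 of Itgb3 lie on the plus strand at chr11:104531672-104531731 and chr11:104528625-104528684. No annotation of this build was used, so the part of the transcript under each probe is not given.
Selp: atgcctgctttaagatctcctgggtcttcc
Gp9: gctgtccagtctaaagacctgggttttatc
Gp5: gtgaaagtcccaataacaggctctactggg
Clec1b probe 1: ttagttctgctgatctcatccatggggctg
Clec1b probe 2: ggatgtcagataagtgcttgatcatgcaat
Clec1b probe 3: cattccgttggattggattatcacgccaga
Itgb3 probe 1: ccacagcaacatcagagtctttgtccattt
Itgb3 probe 2: acttatgtgtgtgacgagtgtggggaaatg

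Megakaryocyte genes are known to be controlled by GATA1 and by ETS factors, so promoters were searched for their short core motifs in the 300 bases from 250 before to 50 after the RefSeq start (GRCm38.p6). The letters searched were AGATAA and TGATAA for GATA and AGGAAG and CGGAAG for ETS, on both strands, with overlapping matches kept. Promoters of 9 of the 10 genes were in the table used; Itgb3 was not. A GATA match stood in 4 of 9 (Pf4, Gp5, Gp1ba and Clec1b) against 21% of 27025 genes, and an ETS match in 6 of 9 (Pf4, Itga2b, Gp9, Gp5, Gp1ba and Selp) against 49.8%. Both were found in Pf4, Gp5 and Gp1ba, 3 of 9 against 8.83% of all genes. With 9 promoters these shares are a description only. The 250 bases before the start are printed for Gp1ba and Gp5, which hold both motifs there, for Itga2b with its 2 ETS matches, and for Selp, whose level followed the others least closely apart from 1 Itgb3 probe; capitals mark the matches. They lie at chr11:70638872-70639121 on the plus strand (Gp1ba), chr16:30310782-30311031 on the minus strand (Gp5), chr11:102469884-102470133 on the minus strand (Itga2b) and chr1:164115014-164115263 on the plus strand (Selp).
Gp1ba promoter: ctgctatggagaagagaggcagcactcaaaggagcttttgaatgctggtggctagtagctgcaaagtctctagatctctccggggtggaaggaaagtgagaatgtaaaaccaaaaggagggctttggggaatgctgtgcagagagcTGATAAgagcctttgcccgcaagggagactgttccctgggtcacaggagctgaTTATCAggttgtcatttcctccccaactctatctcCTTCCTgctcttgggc
Gp5 promoter: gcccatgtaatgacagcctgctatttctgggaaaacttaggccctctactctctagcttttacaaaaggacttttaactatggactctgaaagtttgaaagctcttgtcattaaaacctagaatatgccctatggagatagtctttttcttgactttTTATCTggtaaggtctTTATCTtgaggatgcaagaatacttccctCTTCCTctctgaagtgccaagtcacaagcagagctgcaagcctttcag
Itga2b promoter: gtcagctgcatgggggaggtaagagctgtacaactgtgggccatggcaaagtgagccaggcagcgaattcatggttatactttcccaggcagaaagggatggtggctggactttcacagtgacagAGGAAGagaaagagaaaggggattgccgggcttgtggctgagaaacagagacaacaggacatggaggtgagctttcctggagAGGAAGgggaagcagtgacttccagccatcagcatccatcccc
Selp promoter: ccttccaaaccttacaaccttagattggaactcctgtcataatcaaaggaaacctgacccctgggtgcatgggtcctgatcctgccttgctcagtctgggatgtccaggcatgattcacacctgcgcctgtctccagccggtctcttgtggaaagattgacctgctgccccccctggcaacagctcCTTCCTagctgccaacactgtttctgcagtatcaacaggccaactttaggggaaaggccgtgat

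All 13 probes were detected on all 24 blood arrays, meaning that the scanner software marked them as significantly positive and well above background. Levels are given as log2 of the processed signal minus the array's 75th percentile, so 0 is the 75th percentile of the array. Over the 24 blood arrays the median signal ran from 44.6 intensity units for Itgb3 probe 2 to 41440 for Pf4. The signals of different probes are not compared as amounts of mRNA. The 75th percentile itself ran from 54.9 to 191.5 intensity units over the blood arrays and from 571.6 to 688.8 over the mPFC arrays. In blood, genes of red cells, neutrophils and lymphocytes were also read. For endothelial cells 2 of 8 marker genes passed detection (Pecam1 and Kdr), and Cdh5, Tek, Tie1, Emcn, Cldn5 and Sele did not. In mPFC all 5 neuron markers passed. Each tissue used 3 slides of 8 arrays. Slide 1 carried the 6 control mice and CUMS mice 1 and 2, slide 2 carried CUMS mice 3 to 6 and OVX mice 1 to 4, and slide 3 carried OVX mice 5 and 6 and the 6 OVX+CUMS mice. Slide and group are thus partly confounded, and each result is given with and without slide as a block.

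The platelet genes went up and down together from mouse to mouse, whatever the group. For each mouse the 10 genes' deviations from their own 24-array means were averaged. This platelet mean was -0.996 in control mouse 2, where all 10 genes were below their means and 8 of 10 had their lowest level of all 24 mice. OVX mouse 3 was next at -0.73, with all 10 genes low and the other 2 genes at their lowest. OVX+CUMS mouse 3 followed at -0.54, again with all 10 genes low. At the other end, CUMS mouse 3 had a platelet mean of 0.59 and the highest level of 7 genes, and CUMS mice 4 and 5 held the highest level of the remaining 3. In a bulk sample such as this, fewer platelets and less RNA per platelet cannot be told apart.

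**Figure D1:**
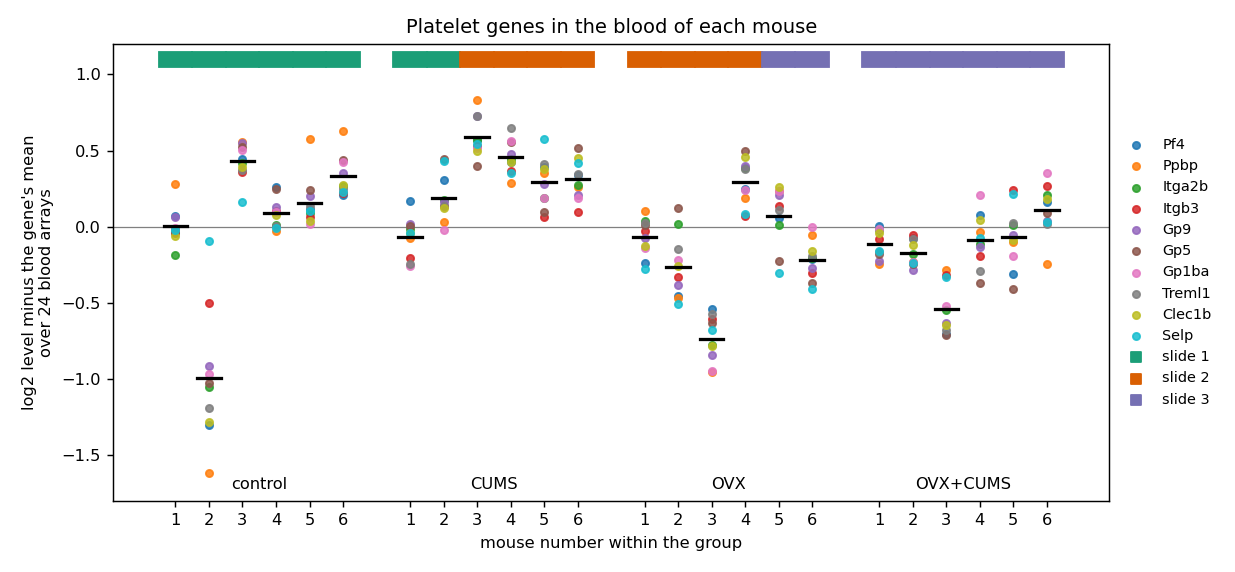
Deviation of each of the 10 platelet genes (coloured points, log2 level minus the gene's mean over 24 blood arrays) in each mouse, with the mean of the 10 as a black bar and the slide as a coloured strip. Control mouse 2 has a mean of -0.996, OVX mouse 3 of -0.73 and CUMS mouse 3 of 0.59, and within a mouse most genes lie close to the bar.

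After the group means were removed, the Pearson correlation between pairs of the 10 genes over the 24 blood arrays had a median of 0.88 over 45 pairs, from 0.52 to 0.96. The median Spearman rho was 0.74, and without control mouse 2 and OVX mouse 3, the farthest from the median, the median Pearson r was 0.75. These correlations are a description, since the genes of 1 array share its RNA and its scaling. The 9 pairs with Selp had a median of 0.68 and the 36 pairs without it one of 0.88. The 3 Clec1b probes followed one another, with r between 0.92 and 0.98. The 2 Itgb3 probes did so less (r = 0.57), and Itgb3 probe 2 was the dimmest of the 13. The spread between mice of a group was wider for these probes than for most: the median SD within groups was 0.39 against 0.28 over all 20768 probes detected in blood. Selp had the smallest at 0.21 and Ppbp the largest at 0.52. The Selp value of an array is the average of 10 spots, while every other platelet probe had 1 spot. The part of this in the small SD and SE of Selp was not tested.

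By group, the platelet means were 0.0028 ± 0.51 in control, 0.30 ± 0.23 in CUMS, -0.15 ± 0.35 in OVX and -0.14 ± 0.21 in OVX+CUMS mice (SD, n = 6 each). The ranges of all 4 groups overlapped. Without mouse 2 the control mean was 0.20 ± 0.17 (SD, n = 5). Markers of other blood cells did not move alike in the mice with low platelet means. Control mouse 2 had an erythroid marker mean (10 of 10 genes read) of 0.84, below that of CUMS mouse 2 alone, and its 75th percentile was 81.3 intensity units against 103.1 to 132.4 in the other controls. OVX mouse 3 had an erythroid mean of 0.21 and OVX+CUMS mouse 3 of -0.37, the lowest of its group. The neutrophil marker means were 0.29 in control mouse 2, -0.41 in OVX mouse 3 and -0.54 in OVX+CUMS mouse 3. OVX+CUMS mouse 5, whose neutrophil marker mean of 3.14 stood far above the others, had a platelet mean of -0.07, and CUMS mouse 2, with the highest erythroid mean of 1.16, had one of 0.19. Over the 24 mice, within groups, the platelet mean and the erythroid mean had r = -0.46 and rho = -0.16, and r was 0.07 without control mouse 2 and OVX mouse 3, so the relation rested on those mice.

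The question of the OVX comparison was whether the removal of the ovaries changed these mRNAs in blood. The effect is the mean of the OVX and OVX+CUMS groups minus the mean of the control and CUMS groups, tested with limma over all detected probes with Benjamini-Hochberg adjustment. Selp, Gp5 and Gp9 fell. The other 10 probes did not pass, and all 13 effects were below 0, with a median of -0.27 against 0.04 over all probes tested. The 3 calls of 13 stand against 55.1% of all probes called for OVX in blood and 27.7% called lower, so calls were no more frequent among the platelet probes than in the whole array.

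Selp had levels of 0.45, 0.60 and 0.78 (lowest, median and highest of 6) in control, 0.51, 0.97 and 1.13 in CUMS, -0.13, 0.19 and 0.63 in OVX, and 0.22, 0.43 and 0.77 in OVX+CUMS mice. CUMS mouse 1 was the low one of its group and OVX mouse 4 the high one, and the OVX and control ranges overlapped through OVX mouse 4. Its OVX effect was -0.44 (SE 0.09, adjusted p = 0.000512), which is 1.36-fold lower.

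Gp5 had levels of 1.79, 3.07 and 3.35 in control, 2.83, 3.24 and 3.38 in CUMS, 2.19, 2.72 and 3.32 in OVX and 2.11, 2.51 and 2.91 in OVX+CUMS mice. Control mouse 2 was below every ovariectomized mouse, and all 4 ranges overlapped. Its OVX effect was -0.40 (SE 0.15, adjusted p = 0.0288).

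Gp9 had levels of 5.69, 6.78 and 7.16 in control, 6.63, 6.86 and 7.34 in CUMS, 5.77, 6.44 and 7.01 in OVX and 5.98, 6.43 and 6.65 in OVX+CUMS mice. Again control mouse 2 was the lowest of all 24. Its OVX effect was -0.38 (SE 0.15, adjusted p = 0.0354).

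Pf4, the brightest of the 13, had levels of 7.19, 8.65 and 8.94 in control, 8.66, 8.85 and 9.06 in CUMS, 7.95, 8.26 and 8.74 in OVX and 7.79, 8.45 and 8.65 in OVX+CUMS mice. Of the 6 control mice 5 were at 8.56 or above, control mouse 2 was the lowest of all 24, and the CUMS and OVX+CUMS ranges just missed each other. Its OVX effect of -0.33 (SE 0.15) did not pass (adjusted p = 0.0662).

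Ppbp, the other granule chemokine, had levels of 5.93, 7.96 and 8.18 in control, 7.47, 7.82 and 8.38 in CUMS, 6.59, 7.57 and 7.78 in OVX and 7.26, 7.31 and 7.51 in OVX+CUMS mice. Its 6 OVX+CUMS values were the closest together (SD 0.098, against 0.86 in control), and its OVX effect was -0.35 (SE 0.20, adjusted p = 0.132). For the fibrinogen receptor, Itga2b ranged from 3.801 to 5.42 and Itgb3 probe 1 from 5.82 to 7.20 over the 24 mice, with OVX effects of -0.20 (SE 0.14, adjusted p = 0.236) and -0.24 (SE 0.13, adjusted p = 0.123). Itgb3 probe 2 had an effect of -0.16 (adjusted p = 0.225).

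Gp1ba, the chain that binds von Willebrand factor, ranged from 2.16 to 3.69 and had an OVX effect of -0.21 (SE 0.16, adjusted p = 0.266). Treml1 ranged from 5.28 to 7.20, with an effect of -0.26 (SE 0.15, adjusted p = 0.143). The 3 Clec1b probes had OVX effects of -0.27, -0.29 and -0.08, none of them called. In each of these genes the ranges of the 4 groups overlapped, and control mouse 2 had the lowest level of its group.

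**Figure D2:**
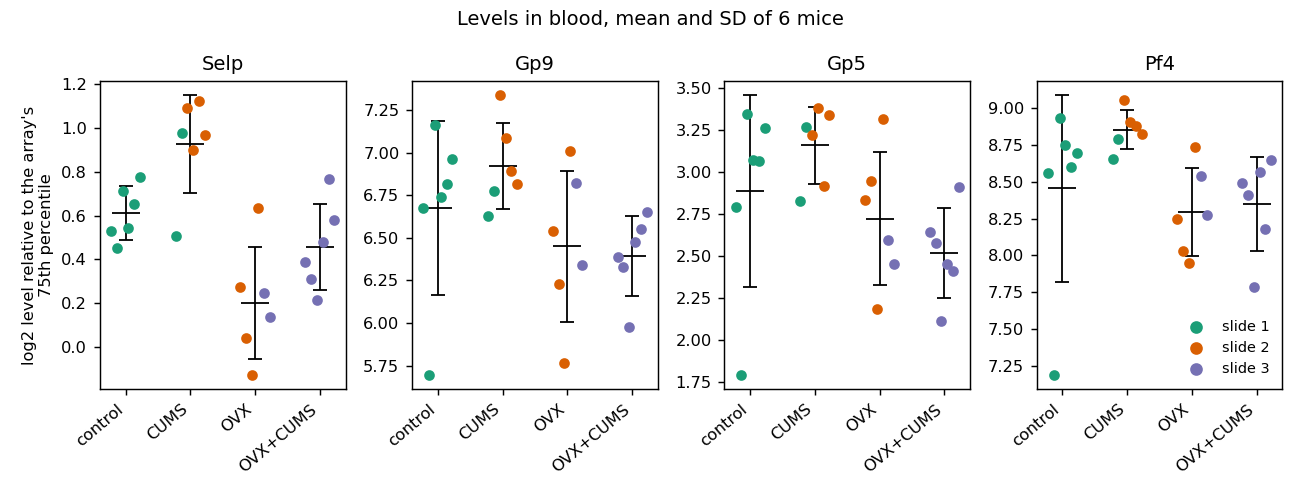
Log2 level relative to the array's 75th percentile of Selp, Gp9, Gp5 and Pf4 in the blood of each mouse, coloured by slide, with the mean and SD of 6 mice per group in black. Control mouse 2 lies at the bottom of the Gp9, Gp5 and Pf4 panels, and the Selp values of CUMS mice on slide 2 lie above those of OVX mice on the same slide.

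The OVX calls depended on which mice were included. Without control mouse 2, 10 of 13 probes were called lower (50.6% of all probes called), with a median effect of -0.38. Selp alone was called without control mouse 3, OVX mouse 3 or OVX+CUMS mouse 3 (52.2%, 55.7% and 50.5% of all probes called). The Gp9 call was lost on leaving out any 1 of 9 mice: control 3, 5 or 6, CUMS 3, OVX 2, 3 or 6, or OVX+CUMS 2 or 3. Selp was called whichever mouse was left out. With slide as a block, no platelet probe was called for OVX, nor was any of the 20768 probes (0% called); the 13 effects then ran from -0.90 to -0.32 with a median of -0.62 and a median SE of 0.34, and 3 of 13 had an unadjusted p under 0.05 (Selp, Gp1ba and Gp9), against 1317 of all probes. When arrays were scaled on the added E1A spike-in RNA, the OVX median of the 13 was 0.08 and that of all probes 0.39. None of the 13 was then called, where 58.2% of all probes were. This scaling shifts all probes of an array alike, so the distance of 0.31 between the medians is fixed by construction.

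Chronic ultra-mild stress changed 1 of the 13 probes. Selp rose by 0.29 (SE 0.09, adjusted p = 0.0124), which is 1.22-fold, and was called whichever mouse was left out. All 13 effects were above 0, from 0.03 (Gp5) to 0.29, with a median of 0.15 against -0.03 over all probes, while 48.5% of all probes were called for CUMS and 19.1% called higher. Without control mouse 2 the median was 0.06 and 10 of 13 were above 0. With slide as a block none of the 13 was called or had an unadjusted p under 0.05 (49.7% of all probes were called), Selp stood at 0.20 (adjusted p = 0.17), and 7 of the 13 effects were below 0. With the spike-in scaling all 13 CUMS effects were below 0, with a median of -0.15 against -0.33 over all probes.

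No platelet probe was called for the interaction of OVX and CUMS with limma, where 1.42% of all probes were, and 1 of 13 had an unadjusted p under 0.05. This was Clec1b probe 1 (-0.73, SE 0.32, limma adjusted p = 0.231). Set against control mice, OVX+CUMS mice had no called probe among the 13 with limma, against 6.26% of all probes, and none had an unadjusted p under 0.05. The 13 differences ran from -0.37 to 0.16. In the exact two-sided permutation test of 6 against 6 mice the p ranged from 0.139 for Selp to 0.9 for Itga2b, where the smallest p the design allows is 0.00216. With slide as a block neither comparison called any probe of the array (0% called for each).

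**Figure D3:**
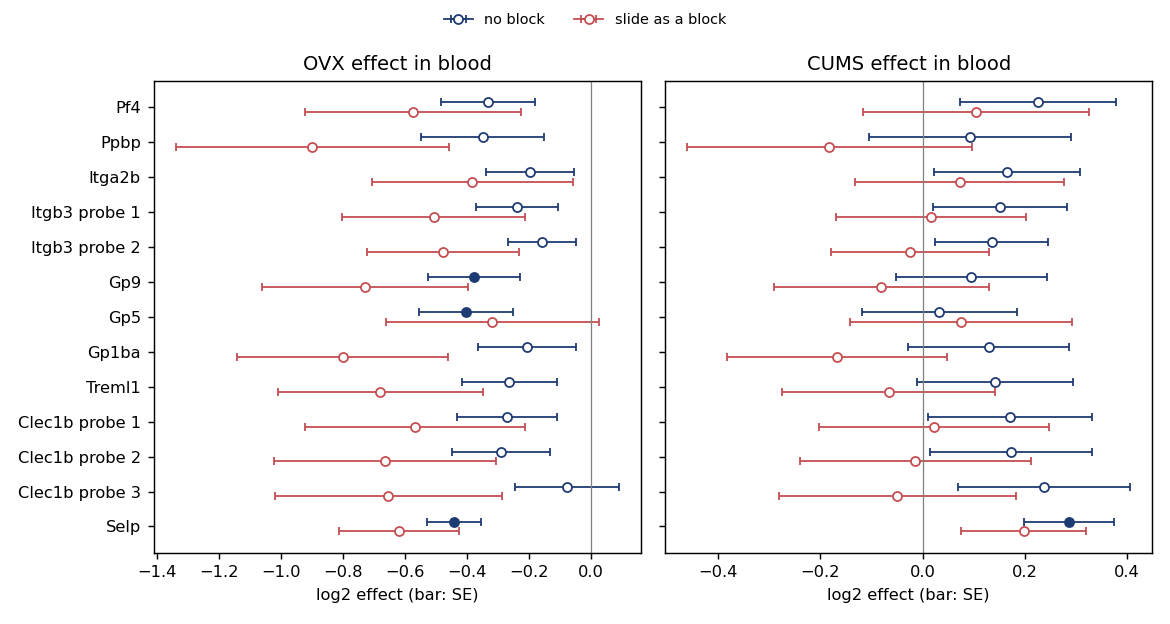
Log2 effect of OVX (left) and CUMS (right) on the 13 platelet probes in blood, with its standard error, without a block (blue) and with slide as a block (red); filled points have an adjusted p below 0.05. Selp, Gp9 and Gp5 are filled for OVX and Selp for CUMS without the block, and no point is filled with it.

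Within slides the groups could be set against each other without a slide difference. On slide 2 all 13 probes were higher in the 4 CUMS than in the 4 OVX mice, by 0.39 to 0.82 with a median of 0.61. Of the 13, 6 were called, against 54.5% of all probes. The CUMS and OVX mice differ in both surgery and stress, so this difference isolates neither effect. The platelet mean was 0.29 to 0.59 in these CUMS mice and -0.73 to 0.29 in the OVX mice. Leaving out 1 of the 8 mice left between 1 and 10 calls: Selp alone without CUMS mouse 3, CUMS mouse 4, OVX mouse 2 or OVX mouse 3, and 10 probes without OVX mouse 4. In these fits 37.6% to 62.4% of all probes were called. On slide 1 the 2 CUMS mice minus the 6 control mice gave a median of 0.10 and no call by limma among the 13 or among all probes (0% called), with 7501 of 20768 probes at an unadjusted p under 0.05 but none of the 13. On slide 3 the OVX+CUMS mice minus the 2 OVX mice gave a median of -0.13 and no call among the 13, none of which had an unadjusted p under 0.05, where 0.00482% of all probes were called.

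Mice of 1 group could also be compared across slides. CUMS mice on slide 2 had higher levels of all 13 probes than CUMS mice on slide 1, with a median difference of 0.33, but none was called (6.76% of all probes were). OVX mice on slide 3 and slide 2 differed by a median of 0.17, again with no call among the 13 (3.39% of all probes were called).

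A wider list of 51 genes with known roles in platelets or megakaryocytes was read beside the 10; 48 of them, with 68 probes, were detected in blood. For OVX 25 of the 68 probes fell and 1 rose, with a median of -0.26, and for CUMS 9 rose and 3 fell, with a median of 0.13. Over all probes 27.7% were called lower for OVX and 19.1% higher for CUMS, and 55.1% and 48.5% were called in either direction. By role, OVX lowered 6 of 14 surface receptor probes, 4 of 14 granule cargo probes, 1 of 16 signalling and enzyme probes, 8 of 14 cytoskeleton probes and 6 of 10 transcription factor probes, and 1 of the 2 Runx1 probes rose (0.30, SE 0.11, adjusted p = 0.0305) while the other fell (-0.44, SE 0.11, adjusted p = 0.00313). Of the 8 lowered cytoskeleton probes 6 were probes of the single gene Tpm1, as were 5 of the 6 raised by CUMS. CUMS raised 6 cytoskeleton probes and 1 in each of the receptor, cargo and enzyme lists, and lowered Tbxa2r, Fli1 and the Runx1 probe that rose with OVX. With slide as a block no wider probe was called for OVX, and for CUMS 10 rose and 2 fell.

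The 4 called probes of this list with the largest OVX effects, and the 4 with the largest CUMS effects, had correlations with the platelet mean near or below 0. Tpm1, a tropomyosin, was lower with OVX (-0.75, SE 0.16, adjusted p = 0.000966) and higher with CUMS (0.52, SE 0.16, adjusted p = 0.0134) in its probe with the largest OVX effect. Within groups that probe had r = -0.43 with the platelet mean and r = 0.96 with the erythroid marker mean. A second Tpm1 probe fell with OVX by 0.65 (adjusted p = 0.00384), and another rose with CUMS by 0.59 (adjusted p = 0.00767). Cd36, the thrombospondin receptor, which rose most with CUMS (0.66, SE 0.17, adjusted p = 0.00461), had r = -0.40 with the platelet mean and 0.95 with the erythroid mean. P2rx1, an ATP-gated channel, had the largest OVX effect (-0.82, SE 0.16, adjusted p = 0.00044) and r = -0.09 with the platelet mean. Zfpm1, the GATA1 partner FOG1, fell with OVX by 0.65 (SE 0.12, adjusted p = 0.000252) and had r = -0.56 with the platelet mean. One Tbxas1 probe rose with CUMS (0.53, SE 0.15, adjusted p = 0.00868) and had r = -0.30, while the other Tbxas1 probe had r = 0.90 and a CUMS effect of 0.17 (adjusted p = 0.304). In limma with the slide block, the OVX adjusted p was 0.894 for P2rx1, 0.852 for Zfpm1 and 0.988 for the first Tpm1 probe. The CUMS adjusted p was then 0.00936 for that Tpm1 probe, 0.00919 for Cd36 and 0.0678 for the called Tbxas1 probe.

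The best known platelet genes of the list gave other values. Vwf encodes von Willebrand factor and is also made by endothelial cells. It fell with OVX in both probes (-0.56, SE 0.15, limma adjusted p = 0.00441, and -0.32, SE 0.12, limma adjusted p = 0.032). These probes had r = 0.95 and 0.63 with the platelet mean. In limma with the slide block their OVX adjusted p was 0.791 and 0.894. Tubb1, the platelet beta-tubulin, had r = 0.83 and an OVX effect of -0.15 (adjusted p = 0.352). Gata1, also made in red cell precursors, fell with OVX by 0.36 (SE 0.08, adjusted p = 0.00111) and had r = 0.25 with the platelet mean and 0.52 with the erythroid mean. Nfe2, which red cell precursors make too, had r = 0.59 and an OVX effect of -0.18 (adjusted p = 0.203). The limit of r above 0.7 was set after the values were seen. Of the 43 wider probes above it, 10 were called for OVX and none for CUMS by limma. Of the other 25, 16 were called for OVX and 12 for CUMS, where 55.1% and 48.5% of all probes were. The split used correlations from these same arrays, so the counts are a description, and the contrast between both parts was not tested. The erythroid markers fell with OVX in 7 of 10 probes and rose with CUMS in 7 of 10, against 27.7% of all probes lower and 19.1% higher. Under the slide block 0 of 10 were called for OVX and 8 rose with CUMS. Their part in the wider list's effects was not tested.

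**Figure D4:**
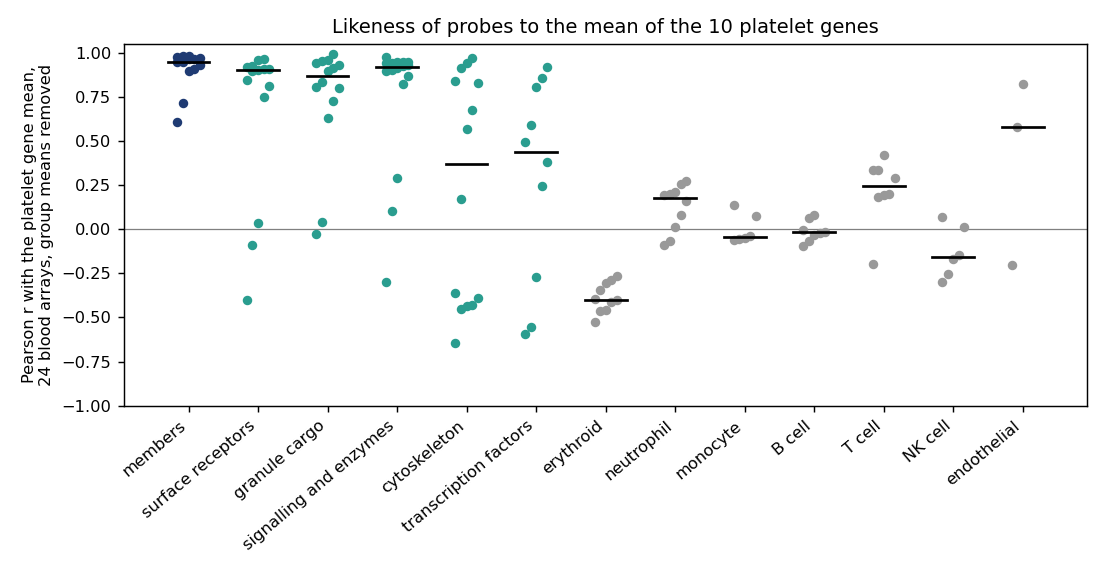
Pearson r of each detected probe with the platelet mean over 24 blood arrays after removing group means, by list, with the median as a black bar: the 10 genes themselves (dark blue), wider platelet lists (green) and markers of other cells (grey). The receptor, cargo and enzyme lists have medians of 0.90, 0.87 and 0.92, the cytoskeleton list is split, and the erythroid markers lie between -0.53 and -0.27.

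Markers of the other blood cells had lower correlations with the platelet mean. The median r was -0.40 over 10 erythroid, 0.18 over 10 neutrophil, -0.04 over 6 monocyte, -0.02 over 8 B cell, 0.24 over 8 T cell and -0.16 over 6 NK cell probes. Of the neuron markers, 2 of 5 were detected in blood, Gad1 with r = 0.85 and Snap25 with r = -0.023. The median r over all 20768 probes was -0.02. Of the 3 endothelial probes, 1 Kdr probe had r = 0.82, the other Kdr probe, which fell with OVX (-0.58, SE 0.14, adjusted p = 0.00161), -0.20, and Pecam1, which platelets also carry, 0.58. The summed level of the 2 endothelial genes ran from 36.99 to 58.1 times the 75th percentile in control, 29.7 to 89.6 in CUMS, 20.7 to 30.5 in OVX and 30.3 to 41.6 in OVX+CUMS mice. Its part in the Selp, Itgb3 and Vwf values was not tested.

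Among detected probes outside both lists, those most like the platelet mean within groups were Nomo1 (r = 0.99), Mast2 (0.98), Parvb (0.98), Tmem40 (2 probes, both 0.97), Gas2l1 (0.97), Lgalsl (0.97), S100a1 (0.97), Rbpms2 (0.97) and Rac1 (0.97), each over 24 arrays. Of the 10 probes 3 passed the test for OVX, Nomo1 (-0.38, adjusted p = 0.0167), Gas2l1 (-0.34, adjusted p = 0.0468) and 1 Tmem40 probe (-0.39, adjusted p = 0.0343), and none passed for CUMS, with effects from -0.0097 to 0.21, where 55.1% and 48.5% of all probes passed. No probe of the array passed for OVX with the slide block.

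In mPFC 6 of the 13 probes were detected on all 24 arrays. Each of these 6 was higher in blood than in mPFC of the same mouse in 24 of 24 mice, relative to each array's own 75th percentile. The median difference ran from 4.45 (Selp) to 10.33 (Treml1). The 75th percentile was higher in mPFC, so these are not differences in intensity alone; for Itgb3 probe 2 the median intensity was 44.6 units in blood and 25.8 in mPFC. Gp1ba was detected on 0 of 24 mPFC arrays, Ppbp on 2, Itga2b on 12, Itgb3 probe 2 on 20 and Gp5 on 21. Clec1b probes 2 and 3 were detected on 1 array each while probe 1 was detected on all 24, so the probes of this gene disagreed in mPFC. The 6 probes tested there were Pf4, Itgb3 probe 1, Gp9, Treml1, Clec1b probe 1 and Selp.

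For OVX in mPFC, Selp fell and Itgb3 rose, 2 of 6 against 30.9% of all probes. Selp ranged from -3.17 to -1.96 in control, -4.66 to -2.88 in CUMS, -4.50 to -4.12 in OVX and -4.46 to -3.60 in OVX+CUMS mice, so that every control mouse lay above every ovariectomized mouse. Its OVX effect was -0.97 (SE 0.18, adjusted p = 0.000418). The mean Selp signal in mPFC was low, at 101.5 intensity units in control, 48.28 in CUMS, 29.28 in OVX and 34.83 in OVX+CUMS mice. With normexp background correction the lowest OVX effect of the 6 probes was -0.41, and Selp was the 1 call. The size of the Selp effect thus depended on the background correction. Itgb3 probe 1 was higher with OVX by 0.17 (SE 0.06, adjusted p = 0.0437) and with CUMS by 0.23 (SE 0.06, adjusted p = 0.0483), the 1 call of 6 for CUMS against 4.19% of all probes. The interaction was called for Selp (1.33, SE 0.36, adjusted p = 0.0411) and Clec1b probe 1 (1.16, SE 0.30, adjusted p = 0.038), against 4.49% of all probes. OVX+CUMS mice had lower Selp than control mice by 1.39 (exact permutation p = 0.00216) and higher Itgb3 by 0.40 (exact permutation p = 0.00216), the smallest p that 6 against 6 allows, where 33.4% of all probes were called.

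These cortex values followed the slides. Selp was -2.81 ± 0.41 on slide 1, -4.36 ± 0.23 on slide 2 and -4.18 ± 0.29 on slide 3 (SD, n = 8 each). CUMS mice 1 and 2, which shared slide 1 with the controls, had -3.03 and -2.88, inside the control range, and the CUMS and OVX mice of slide 2 overlapped. Clec1b probe 1 was -3.23 ± 0.10 on slide 1, -4.18 ± 0.37 on slide 2 and -3.42 ± 0.13 on slide 3, and every mouse of slide 2 lay below every mouse of the other slides. Itgb3 probe 1 had slide means of -0.35, -0.15 and 0.0057. Its mean was -0.36 in control and -0.31 in CUMS mice of slide 1, and -0.057 in CUMS mice of slide 2. With slide as a block no probe of the array was called in mPFC for OVX, CUMS, their interaction or OVX+CUMS against control (0% called for each). None of the 6 had an unadjusted limma p under 0.05, and the OVX+CUMS difference of Itgb3 probe 1 was then 0.017. For Selp, Clec1b and Itgb3 in this tissue slide and group cannot be told apart.

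**Figure D5:**
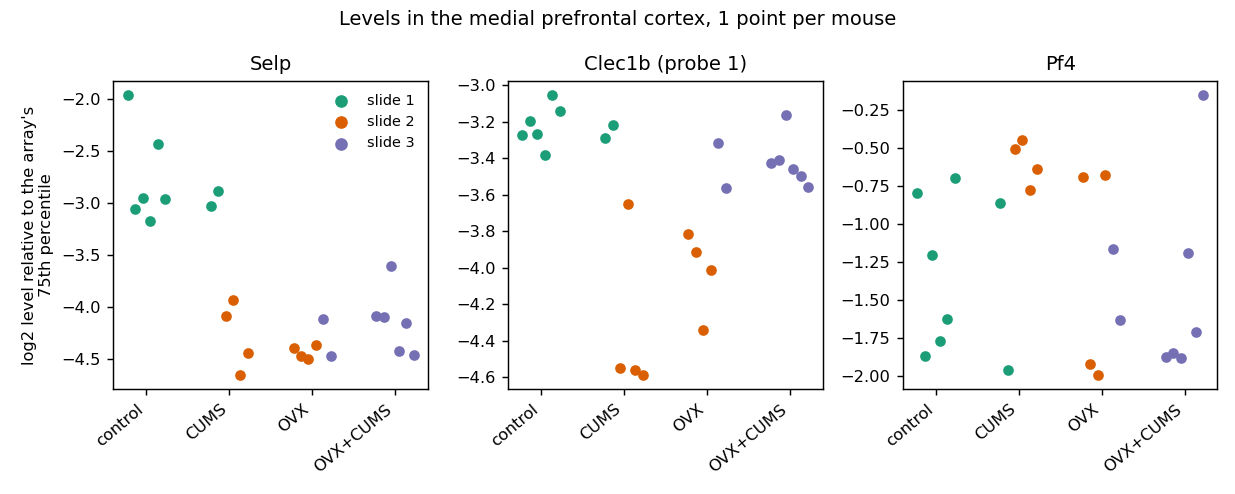
Log2 level relative to the array's 75th percentile of Selp, Clec1b probe 1 and Pf4 in the mPFC of each mouse, coloured by slide. Selp lies at -3.17 or above on slide 1 and at -3.60 or below on slides 2 and 3, and all 8 Clec1b values of slide 2 lie below those of slides 1 and 3.

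Pf4 was detected on all 24 mPFC arrays and ranged from -1.99 to -0.15, with SDs of 0.50 to 0.69 within groups, and no effect on it was called in mPFC. Gp9 and Treml1 were not called either for OVX, CUMS or their interaction. The mPFC levels of Gp9 ran from -3.08 to -2.28 and those of Treml1 from -4.23 to -3.24.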

How the data were processed

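RNA of blood pellets and of mPFC from the same 24 mice was measured on 48 one-colour (Cy3) Agilent arrays. The authors deposited scanner files of Agilent Feature Extraction 10.7.3.1, whose processed signal is an intensity after background correction, and a table of log2 values per array, deposited by the authors, which matched the scanner values of probes with 1 spot up to a constant per array (within 0.001). From the intensity, outlier spots and control spots were left out, spots of a probe averaged, log2 taken and each array's 75th percentile subtracted. A probe was tested in a tissue if it was significantly positive and well above background on all 24 arrays and above 50 intensity units on at least 2. Tests used limma 3.58.1 in R 4.3.3 on 4 groups of 6, two-sided, with Benjamini-Hochberg adjustment over all tested probes and a threshold of 0.05. Within-slide differences came from a fit of every group and slide combination. The script was tested on simulated data with independent probes and no slide differences. That test therefore did not address the confounding of slide and group. The number of arrays limits the precision, and no spot was saturated.

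All probes of the 10 genes were described, and from a wider list the 4 called probes with the largest OVX and the 4 with the largest CUMS effects in blood were named, plus Tubb1, Vwf, Gata1 and Nfe2 whatever their values. The members and lists were chosen with earlier results of these data known. The p-values set group differences against the spread between mice. Without the slide block, slide differences can enter both the group differences and that spread. The 10 probes most like the platelet genes were those of other genes with the highest correlation with their mean. Alternatives were normexp, quantile normalization, other percentiles, filters and spike-in scaling, slide or replicate number as a block, no moderation, and leaving out each mouse. Promoters are from RefSeq's table, GRCm38.p6, and probe positions from the files, mm9.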

Additional observations from a re-analysis of the deposited data

Results flagged for a closer look

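Control mouse 2 lay apart from the other 5 control mice in blood in 10 of the 13 platelet probes, each time below them. Its levels (log2 relative to the array's 75th percentile) were 7.19 for Pf4, 5.93 for Ppbp, 5.82 for Itgb3 probe 1, 5.69 for Gp9, 1.79 for Gp5, 2.16 for Gp1ba and 5.28 for Treml1. For Clec1b probes 1, 2 and 3 they were 3.53, 4.92 and 4.49. Its mean over the 10 genes was -0.996, against 0.0052 to 0.43 in the other controls. These probes share 1 array, so they are not separate observations.

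In 5 other cases a mouse lay apart from its group. In blood these were OVX+CUMS mouse 3 for Clec1b probe 1 (3.99) and CUMS mouse 1 for Selp (0.51), both low. In mPFC they were CUMS mouse 2 for Pf4 (-1.96) and control mouse 1 for Itgb3 probe 1 (-0.65), both low, and OVX mouse 5 for Selp (-4.12), which was high. Of 76 groups of 6 examined probe by probe, 15 held such a mouse. For a single group chance gives about 1 in 20. The probes share arrays and control mouse 2 recurs among the 15, so this count cannot be set against that share.

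In mPFC the CUMS effect differed between ovariectomized and sham-operated mice by 1.16 for Clec1b probe 1 (limma adjusted p = 0.038) and by 1.33 for Selp (limma adjusted p = 0.0411). With slide as a block these differences were 0.053 and 0.36, and neither was called.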

How the results depend on the processing

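The count of platelet probes called in blood for OVX (3) changed with the setting. It was 0 with the E1A spike-in shift (58.2% of all probes called) and 1 without a detection filter (32.9%). It was 0 with slide as a block, with or without control mouse 2, where no probe of the array was called (0% each). Without control mouse 2 and OVX mouse 3 it was 9 (51.6%). The settings that drop these mice, apart from leaving out single mice, were chosen after seeing the data. The Gp9 call was also lost with quantile normalization, the percentile over detected probes and normexp, and with normexp Gp5 was lost too and Itgb3 probe 2 was called (-0.22, limma adjusted p = 0.00276). For CUMS (1) the count was 0 with the E1A shift (46.1% of all probes called) and 0 with the slide block (49.7%). Without control mouse 2 the slide block also gave 0 (57%). In mPFC the OVX count (2) was 1 with normexp (32.9% of all probes called), the percentile over detected probes (26.7%) and the E1A shift (21.5%). It was also 1 with no filter (13.8%) and no moderation (31%), and 0 with the slide block (0%). The mPFC CUMS count (1) was 0 with the percentile over detected probes (4.27%), no filter (0.0449%) and the filter in 1 group (2.79%). It was also 0 with no moderation (3.89%) and the slide block (0%). Under the E1A shift it stayed 1 (17.4%), but the called probe was Selp (-0.54) and the Itgb3 call was lost. Leaving out single mice gave 1 to 10 calls for OVX in blood (49.4% to 60.6% of all probes called) and 1 to 1 for CUMS (40.4% to 56.9%). The interaction had 0 to 0 (0% to 9.76%). OVX+CUMS against control had 0 to 1 (4.16% to 10%), with Gp5 called without control mouse 2. In mPFC the calls were 1 to 2 for OVX (26.9% to 33.3%) and 0 to 2 for CUMS (0.79% to 11.7%). Within slide 2 they were 1 to 10 (37.6% to 62.4%).

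Directions turned as follows. With normexp the OVX effects of Clec1b probes 1 and 3 were 0.011 and 0.032, and the CUMS effects of Itgb3 probe 1, Gp1ba and Treml1 were -0.0066, -0.012 and -0.012. With quantile normalization the OVX effect of Clec1b probe 3 was 0.047. With the E1A shift the OVX effects were 0.017 for Pf4, 0.15 for Itga2b, 0.11 and 0.19 for Itgb3, 0.14 for Gp1ba, 0.086 for Treml1 and 0.079, 0.059 and 0.27 for Clec1b. The CUMS effects were then -0.071 for Pf4, -0.20 for Ppbp, -0.13 for Itga2b, -0.15 and -0.16 for Itgb3, -0.20 for Gp9, -0.26 for Gp5, -0.17 for Gp1ba, -0.16 for Treml1, -0.12, -0.12 and -0.058 for Clec1b and -0.010 for Selp. With the slide block the CUMS effects were -0.18 for Ppbp, -0.025 for Itgb3 probe 2, -0.081 for Gp9, -0.17 for Gp1ba, -0.067 for Treml1 and -0.014 and -0.049 for Clec1b probes 2 and 3. The cause was not tested.

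The replicate number as a block left 3 calls for OVX (52.1% of all probes called) and 1 for CUMS (45.1%) in blood and changed no other count. Deviations of same-numbered mice of different groups had a median correlation of -0.093, so the numbers were not taken as pairs.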
